A study of Mus musculus with 6 samples.

Results

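The genes described here are 35 smooth muscle and contractile cytoskeleton genes, taken by name from a list of muscle actins, myosins, tropomyosins, actin-binding proteins, focal adhesion proteins and the transcription factors that drive them. All 35 had a locus among the 36828 named loci of the files, and all 35 were among the 15673 loci with enough fragments to test. They were sorted by textbook knowledge into 10 genes called smooth muscle restricted and 17 widely expressed genes. The other 8 are enriched in smooth muscle or make both kinds of isoform from 1 locus. Restricted is a label only: the class holds Acta2 and Tagln, which cultured fibroblasts commonly express, and Des, a gene of muscle in general. RNA was measured in mouse embryonic fibroblasts, cells grown out of embryos, on a C57BL/6 background. There were 3 wild-type libraries (labelled STC1+/+) and 3 knockout libraries (labelled STC1-/-), all from cells in serum-containing medium, prepared with a stranded kit for polyadenylated RNA. Neither the way in which the Stc1 allele was disrupted nor the embryo or culture behind each library is stated in the labels, so p-values measure only the spread between libraries, which may be technical.

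Contraction in smooth muscle and in myofibroblasts rests on actin filaments pulled by myosin, whose light chain is phosphorylated by myosin light chain kinase. Cells of the smooth muscle lineage use their own isoforms of actin, myosin heavy chain, calponin and transgelin, while most other cells use a widely expressed relative of each. Serum response factor (SRF) binds a short DNA element, the CArG box, in many of these genes, and it works with myocardin in muscle and with the myocardin-related factors Mkl1 and Mkl2 (also named Mrtfa and Mrtfb) in fibroblasts, where the latter respond to the state of the actin cytoskeleton. Fibroblasts in culture commonly express Acta2 and Tagln, the usual markers of the myofibroblast state.

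Promoters bear on this set because SRF is itself a member. RefSeq promoters on GRCm38.p6, the assembly behind mm10, were found for 30 of the 35 genes, and the 250 bases before the transcription start were searched on both strands for a CArG box by its textbook form, which reads alike on either strand. A box was present in 5 of 30 genes (16.7%), against 439 of all 27025 genes with a promoter entry (1.62%). The 5 were Srf, Vcl, Cnn2, Myl9 and Myl6, so none was among the 6 restricted genes with a promoter entry. The restricted genes Actg2, Tagln, Myh11 and Myocd had no entry and were not searched, so the counts do not compare the classes. With 1 departure allowed in the 6 central bases, the count was 8 of 30 (26.7%) against 2643 genes (9.78%), and the genes added were Acta2, Tpm3 and Mkl1. A match describes letters only and says nothing of binding. The promoters below set the restricted genes Acta2 (chr19:34255374-34255623, minus strand) and Cnn1 (chr9:22099003-22099252, plus strand) beside the widely expressed Cnn2 (chr10:79988350-79988599, plus strand), Vcl (chr14:20929148-20929397, plus strand) and Srf (chr17:46556163-46556412, minus strand). Capitals mark the boxes, which carry 1 departure each in Acta2 and none in Cnn2, Vcl and Srf. The Cnn1 stretch held neither form.
Acta2: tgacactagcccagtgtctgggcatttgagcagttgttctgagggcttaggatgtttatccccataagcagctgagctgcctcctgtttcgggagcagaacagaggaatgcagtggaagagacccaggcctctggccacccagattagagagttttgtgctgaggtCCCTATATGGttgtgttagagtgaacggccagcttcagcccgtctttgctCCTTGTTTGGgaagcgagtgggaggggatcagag
Cnn1: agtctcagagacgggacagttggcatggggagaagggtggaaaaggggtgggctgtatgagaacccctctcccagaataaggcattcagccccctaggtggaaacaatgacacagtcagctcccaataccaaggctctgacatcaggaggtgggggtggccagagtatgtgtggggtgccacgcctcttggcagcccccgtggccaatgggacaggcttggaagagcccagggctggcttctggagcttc
Cnn2: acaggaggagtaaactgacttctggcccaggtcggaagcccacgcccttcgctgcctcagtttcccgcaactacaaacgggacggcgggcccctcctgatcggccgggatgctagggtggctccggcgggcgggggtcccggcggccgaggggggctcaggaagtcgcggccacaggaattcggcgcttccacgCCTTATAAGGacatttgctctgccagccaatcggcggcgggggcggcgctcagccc
Vcl: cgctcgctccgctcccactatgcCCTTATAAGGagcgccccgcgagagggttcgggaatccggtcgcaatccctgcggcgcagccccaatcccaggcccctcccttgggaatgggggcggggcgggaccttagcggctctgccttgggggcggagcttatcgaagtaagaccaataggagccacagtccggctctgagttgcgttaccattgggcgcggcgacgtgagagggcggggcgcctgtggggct
Srf: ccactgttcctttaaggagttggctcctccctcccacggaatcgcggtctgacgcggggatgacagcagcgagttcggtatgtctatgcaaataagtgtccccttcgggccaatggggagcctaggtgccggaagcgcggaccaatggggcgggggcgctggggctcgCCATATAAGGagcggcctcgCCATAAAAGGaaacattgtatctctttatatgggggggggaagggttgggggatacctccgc
In Srf the boxes began 82 and 62 bases before the start, in Cnn2 the box began at 56 bases and in Vcl at 227 bases. In Acta2 the near matches began at 84 and 34 bases.

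The libraries held between 21882092 (knockout replicate 1) and 71488701 (wild-type replicate 1) estimated fragments. Stc1 itself stood at 31.8, 6.81 and 7.61 CPM in the wild-type libraries, CPM being fragments scaled to a common effective library size, and at 0.282, 0 and 0 CPM in the knockout libraries. For the libraries at 0, the limit set by 3 counts was 0.0804 and 0.0665 CPM, which covers counting error only. Fibroblast markers varied in level. Vim lay between 2203 and 4134 CPM and Col1a1 between 829 and 11990 CPM over the libraries. Col3a1 lay between 83.6 and 3322 CPM, and Lum between 6.09 and 226 CPM. Of 17 macrophage markers 15 had a locus, and summed they gave 404, 1652 and 13100 CPM in the wild-type libraries (replicates in order) and 1747, 510 and 554 CPM in the knockout libraries. Summed proliferation markers stood at 832, 1960 and 511 CPM in wild-type and 680, 640 and 585 CPM in knockout libraries. Summed fibroblast markers stood at 12610, 34750 and 13280 CPM in wild-type and 6051, 10170 and 9674 CPM in knockout libraries. Summed pericyte markers stood at 135, 414 and 151 CPM against 116, 99.2 and 211 CPM. The sums for fibroblast, proliferation and pericyte markers were thus highest in wild-type replicate 2, and that for macrophage markers in wild-type replicate 3. Single markers did not all follow their sum: the fibroblast gene Dcn and the pericyte gene Notch3 were lowest in wild-type replicate 2, at 216 and 17.4 CPM. Markers of skeletal and cardiac muscle stayed low, with sums of 7.42 to 20.7 CPM over 20 genes, and Myf5 was at 0 in all 6 libraries.

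Most of the 35 genes had a lower mean in the knockout than in the wild-type libraries, but no single gene passed the test, and the difference was smaller without wild-type replicate 2. The median log2 fold change (knockout against wild type) was -0.81 for the restricted genes, -0.45 for the enriched or mixed genes and -0.21 for the widely expressed genes, against -0.05 for all loci tested. The fold change was below 0 for 10 of 10, 8 of 8 and 15 of 17 genes of these classes, or 33 of 35 in all (94.3%), where 55.6% of all loci tested were below 0. The exceptions were Mkl2 at 0.15 and Zyx at 0.09. The highest CPM of the 6 libraries was in wild-type replicate 2 for 29 of 35 genes (82.9%), against 27.3% of all loci. Without that library the median over the 35 genes was -0.06 and 20 genes were below 0, where 51.1% of all loci were. The restricted genes then had a median of -0.38, and the enriched or mixed and the widely expressed genes 0.00 each. Low medians were not particular to the 35 genes. With all libraries, marker medians were -2.77 for macrophage, -0.91 for fibroblast, -0.89 for proliferation, -0.65 for endothelium and -0.33 for skeletal or cardiac muscle. Those for pericyte and epithelium were 0.32 and 0.14. Without wild-type replicate 2 the fibroblast median was -0.76 and the proliferation median 0.04.

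In edgeR's quasi-likelihood test 0 of the 35 genes passed an adjusted p of 0.05, and 0% of all loci did in either direction. The lowest adjusted p among the 35 was 0.763, and over all loci it was 0.195. At an unadjusted p under 0.05 there were 4 genes, all lower in knockout libraries (Actg2, Des, Cnn1 and Mylk), where 2.27% of all loci were lower and 1.6% higher. DESeq2 and limma-voom called 0 of the 35 as well, although DESeq2 called 0.156% of its loci higher and 0.172% lower. All 3 knockout libraries lay below all 3 wild-type libraries for 4 genes (Actg2, Cnn1, Tpm3 and Tln1) and above them for 0, against 5.43% and 5.18% of all loci. In bulk RNA, fewer cells of a type and less RNA per cell cannot be told apart.

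**Figure D1:**
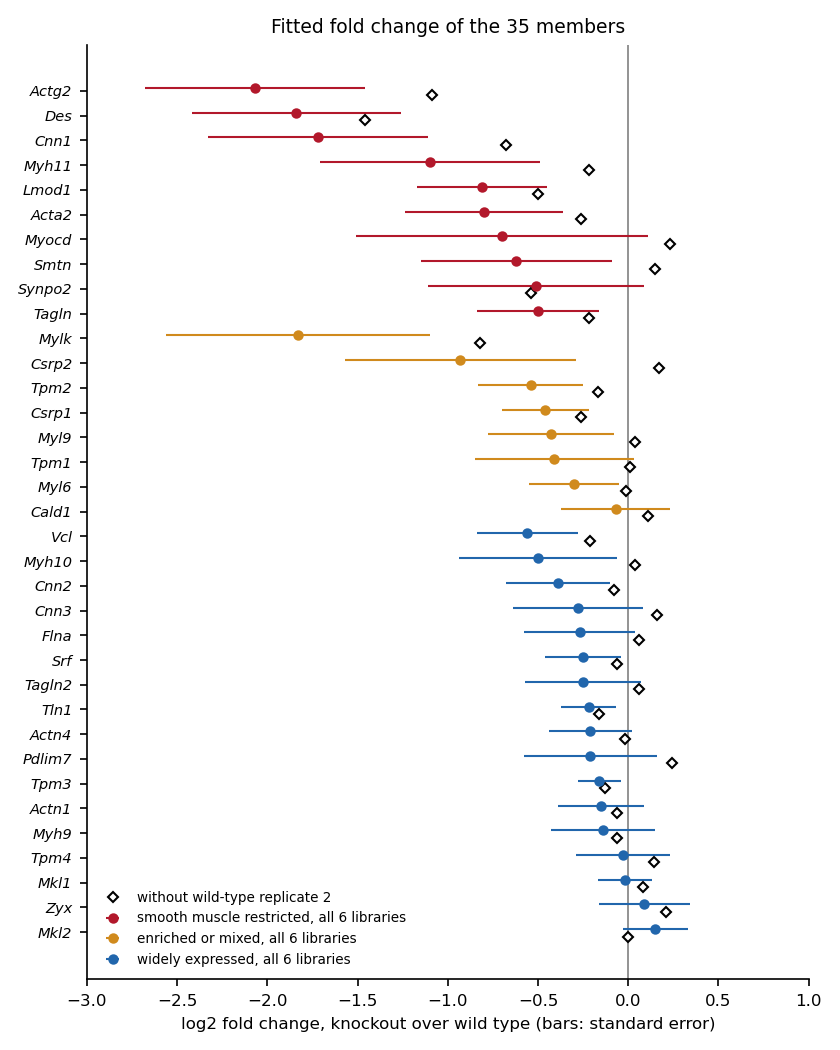
Log2 fold change (knockout against wild type) for the 35 genes, coloured by class, with bars for the standard error of the fit on all 6 libraries and open diamonds for the value without wild-type replicate 2. The restricted genes have a median of -0.81, and the diamonds lie nearer to 0 than the filled points for most genes. Synpo2 at -0.54 is among the exceptions.

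Among the actins, the gamma smooth muscle actin Actg2, the isoform of visceral smooth muscle, had the lowest log2 fold change of all 35 genes. Its locus (XLOC_029235) lies on the minus strand of mm10 at chr6:83512905-83536265. Its level was 66.6, 326 and 102 CPM in the wild-type libraries and 43.2, 35.1 and 39.7 CPM in the knockout libraries, or 165 ± 141 and 39.3 ± 4.07 CPM (mean ± SD, n = 3 each). The 3 knockout values all lay under the lowest wild-type value, and wild-type replicate 2 stood far above the other wild-type libraries. Its log2 fold change was -2.07 (standard error 0.61), and edgeR's adjusted p was 0.763 (0.132 to 0.9999 over the alternatives). Without wild-type replicate 2 it was -1.09 with an unadjusted edgeR p of 0.00516 and an adjusted p of 0.896. In that fit 368 of 15972 loci had an unadjusted edgeR p under 0.05. There Des had an unadjusted edgeR p of 0.069, Mylk 0.174 and Acta2 0.444.

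The alpha smooth muscle actin Acta2, the standard myofibroblast marker (XLOC_017116, chr19:34241090-34255336, minus strand), was the most abundant of the 35 genes per transcript length. It averaged 1680 ± 927 FPKM in wild-type and 980 ± 261 FPKM in knockout libraries (SD, n = 3 each). In CPM it stood at 2817, 5623 and 2033 in wild-type and 1413, 2214 and 2370 in knockout libraries. The groups overlapped, since knockout replicates 2 and 3 lay above wild-type replicate 3. The log2 fold change was -0.80 (standard error 0.44), and -0.26 without wild-type replicate 2. Relative to beta-actin (Actb), the widely expressed isoform, the Acta2 FPKM ratio was 1.01, 1.64 and 0.746 in wild-type and 0.539, 0.804 and 1.04 in knockout libraries, which also overlapped. The Actg2 ratio to the widely expressed gamma-actin Actg1 was 0.171, 0.502 and 0.306 in wild-type and 0.103, 0.0786 and 0.0957 in knockout libraries. All 3 knockout values of that ratio lay below the wild-type values. The Actg1 locus is shared with a second gene name, AL669855.1, so its level is uncertain.

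The coding sequences of Acta2 and Actg2 were 84.4% identical, Acta2 and Actb 83.2%, and Actg2 and Actg1 82.8%, and none of these pairs shared an exact stretch of 50 bases. An exact match of that length could therefore not lie in both coding sequences of a pair. For the calponin, transgelin, myosin and tropomyosin pairs of the ratios, identity ran from 68.2% for Cnn1 and Cnn2 to 78% for Tpm1 and Tpm3. Myh11 shared 0.441% of its 50-base stretches with Myh9 and 0.272% with Myh10.

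**Figure D2:**
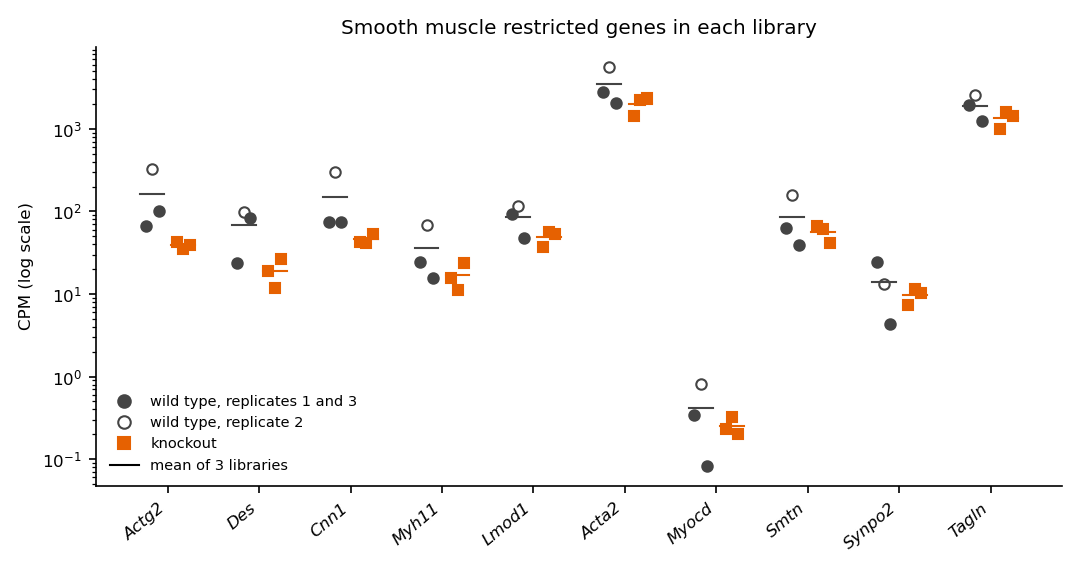
CPM on a log scale of the 10 restricted genes in each library, with filled circles for wild-type replicates 1 and 3, open circles for wild-type replicate 2, squares for knockout libraries and bars for the mean of 3. The open circle is the highest point for every gene except Synpo2, and the knockout squares of Actg2 and Cnn1 lie below all circles.

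Calponin 1 (Cnn1), an actin-binding protein that restrains myosin in smooth muscle, was, like Actg2, lower in all knockout than in all wild-type libraries. The gene (XLOC_034769) lies at chr9:22099281-22109630 on the plus strand. It stood at 74.9, 303 and 73.6 CPM in wild-type and 43.0, 41.7 and 52.6 CPM in knockout libraries. Wild-type replicates 1 and 3 were close to each other, the knockout libraries lay below both, and wild-type replicate 2 was far above them. The log2 fold change was -1.72 (standard error 0.61) with an adjusted p of 0.763 in edgeR. Without wild-type replicate 2 it was -0.68, with an unadjusted edgeR p of 0.00691 and an adjusted p of 0.896. The authors' deposited table gives Cnn1 a mean of 53.3 FPKM in wild type and 16.4 FPKM in knockout, with a p of 0.0142 and a q of 1. The relatives used outside muscle differed less. Cnn2 stood at 585, 829 and 399 CPM in wild-type and 412, 510 and 461 CPM in knockout libraries, and Cnn3 at 284, 464 and 174 CPM against 227, 260 and 271 CPM. Both overlapped, with log2 fold changes of -0.39 and -0.28. The Cnn1 to Cnn2 FPKM ratio averaged -2.46 ± 0.81 on the log2 scale in wild-type and -3.53 ± 0.25 in knockout libraries (SD, n = 3), and the ratio to Cnn3 averaged -1.50 ± 0.65 and -2.70 ± 0.15. In both ratios all knockout libraries lay below all wild-type libraries.

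Transgelin (Tagln, also called SM22), an abundant actin-binding protein of smooth muscle and myofibroblasts, stood at 1940, 2554 and 1230 CPM in wild-type and 1010, 1623 and 1414 CPM in knockout libraries. The knockout values lay within or below the wild-type range, and the log2 fold change was -0.50 (standard error 0.34). Its relative Tagln2 stood at 484, 679 and 313 CPM against 443, 475 and 320 CPM. The Tagln to Tagln2 FPKM ratio was nearly the same in the 3 wild-type libraries, at 3.57, 3.49 and 3.63, and spread from 2.08 to 3.82 in the knockout libraries. On the log2 scale its SD was 0.45 among knockout and 0.03 among wild-type libraries. The authors' status marked the Tagln locus FAIL in 1 library, and its FPKM there was used as given.

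Over the 9 ratios of a muscle-restricted or muscle-enriched gene to its relative, the knockout mean was lower in each, from -0.16 (Tpm1 to Tpm3) to -1.70 (Actg2 to Actg1) on the log2 scale. The ratios Actg2 to Actg1, Cnn1 to Cnn2 and Cnn1 to Cnn3 reached an exact two-sided permutation p of 0.1, the smallest that 3 against 3 libraries allow, with an adjusted p of 0.3 over the 9 ratios. The ratios are not independent, since Cnn1 and Myh11 each enter more than 1 of them. Tpm1 and Tpm2 make muscle and non-muscle isoforms from 1 locus, and their ratios use the FPKM of the whole locus. A ratio within a library shows unequal change, not which gene of the pair differed.

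**Figure D3:**
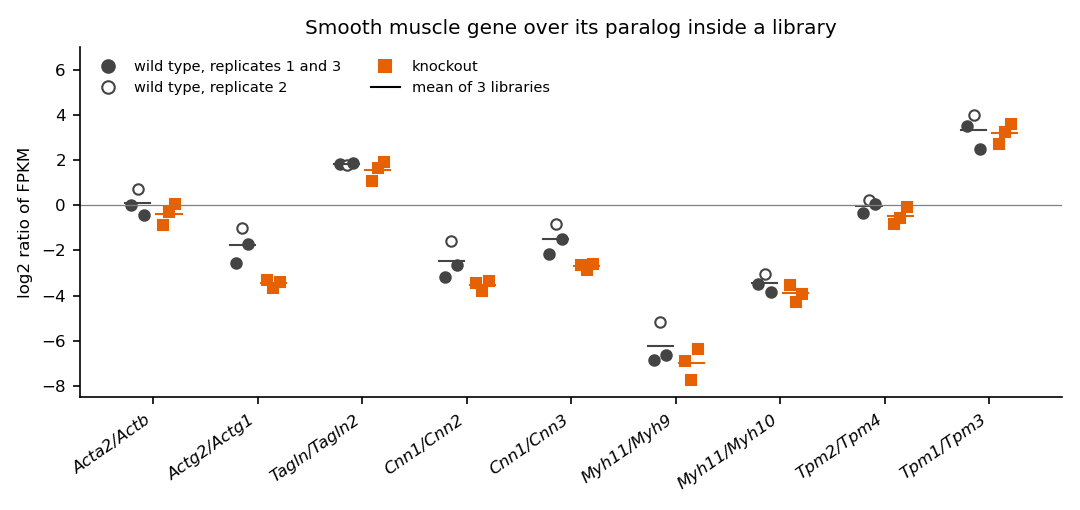
Log2 ratio of the FPKM of a muscle-restricted or muscle-enriched gene to that of its widely expressed relative in each library, for 9 ratios. Knockout values lie below all wild-type values for Actg2 to Actg1, Cnn1 to Cnn2 and Cnn1 to Cnn3 and overlap them for the other 6.

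The motor and its regulators came next. Smooth muscle myosin heavy chain (Myh11) was low, at 4.39 ± 3.51 FPKM in wild-type and 2.09 ± 0.803 FPKM in knockout libraries (SD, n = 3), while non-muscle myosin Myh9 averaged 275 and 254 FPKM and Myh10 43.0 and 31.0 FPKM. Myh11 stood at 24.6, 68.9 and 15.5 CPM against 15.8, 11.2 and 23.9 CPM, and the groups overlapped. Its log2 fold change was -1.10 (standard error 0.61) and -0.22 without wild-type replicate 2. Myh9 and Myh10 had log2 fold changes of -0.14 and -0.50. Myosin light chain kinase (Mylk), which switches on smooth muscle myosin, stood at 13.4, 113 and 43.8 CPM in wild-type and 18.5, 15.2 and 14.1 CPM in knockout libraries. Wild-type replicate 1 was the lowest of the 6 libraries and the other wild-type libraries the highest. The log2 fold change of Mylk was -1.83 (standard error 0.73), -0.82 without wild-type replicate 2 and 0.13 without the 3 libraries richest in macrophage markers (knockout replicate 1 and wild-type replicates 2 and 3). The regulatory light chain Myl9 stood at -0.43 and the essential light chain Myl6, whose locus is shared with Myl6b, at -0.30.

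Filament stabilizers were among the most abundant genes. Tropomyosin 1 (Tpm1), which winds along actin, averaged 983 FPKM in wild-type and 765 FPKM in knockout libraries, and caldesmon (Cald1), which blocks myosin on the filament, 554 and 505 FPKM. Their log2 fold changes were -0.41 and -0.07. Tropomyosin 2 (Tpm2) stood at 410, 707 and 359 CPM in wild-type and 292, 347 and 374 CPM in knockout libraries, with a log2 fold change of -0.54 and a standard error of 0.29. Knockout replicate 3 lay within the wild-type range, and the other knockout libraries below it. Tropomyosin 3 (Tpm3), in a locus shared with Nup210l, was the steadiest of the 35 genes among wild-type libraries, at 230, 242 and 244 CPM against 216, 219 and 207 CPM in knockout libraries. Its groups did not overlap, with a log2 fold change of -0.16 and a standard error of 0.12. Tpm4 stood at -0.03.

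Desmin (Des), the intermediate filament protein of muscle, stood at 23.7, 98.2 and 82.4 CPM in wild-type and 18.8, 11.8 and 26.4 CPM in knockout libraries. Wild-type replicates 2 and 3 were high, while wild-type replicate 1 lay below knockout replicate 3. The log2 fold change was -1.84 (standard error 0.58), -1.46 without wild-type replicate 2 and -0.31 without the 3 libraries richest in macrophage markers, a group that holds both high wild-type libraries. Leiomodin 1 (Lmod1), which nucleates actin filaments, stood at 92.6, 117 and 47.5 CPM against 36.7, 56.3 and 53.8 CPM, with a log2 fold change of -0.81, a standard error of 0.36 and -0.50 without wild-type replicate 2. Smoothelin (Smtn), a marker of contractile smooth muscle cells, stood at 63.7, 157 and 38.7 CPM against 66.7, 60.5 and 41.4 CPM. Wild-type replicate 2 alone stood above the other libraries, which overlapped, and the log2 fold change of -0.62 became 0.15 without it. Synaptopodin 2 (Synpo2), an actin-bundling protein, stood at 24.2, 13.1 and 4.30 CPM against 7.46, 11.4 and 10.3 CPM. It was highest in wild-type replicate 1, and its log2 fold change of -0.51 became 0.16 without that library.

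The LIM proteins Csrp1 and Csrp2 bind the actin cytoskeleton and are smooth muscle enriched. Csrp2 stood at 17.7, 65.7 and 12.3 CPM in wild-type and 17.4, 14.7 and 18.3 CPM in knockout libraries. Wild-type replicate 2 alone was high, and the log2 fold change of -0.93 became 0.17 without it. Csrp1 stood at 503, 634 and 399 CPM against 326, 454 and 335 CPM, with overlapping groups and a log2 fold change of -0.46 (standard error 0.24).

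The focal adhesion anchors actin cables to the membrane. Its protein vinculin (Vcl), whose promoter is printed above with a box, stood at 641, 1110 and 600 CPM in wild-type and 486, 506 and 605 CPM in knockout libraries, with a log2 fold change of -0.56 and a standard error of 0.28. Knockout replicate 3 overlapped wild-type replicate 3. Talin 1 (Tln1), which links integrins to actin, stood at 910, 1028 and 967 CPM against 863, 850 and 783 CPM. Its groups did not overlap, and its log2 fold change of -0.22 (standard error 0.15) stayed between -0.26 and -0.16 when each library was left out. The crosslinkers filamin A (Flna), Actn1 and Actn4 stood at -0.27, -0.15 and -0.21, and the LIM proteins Pdlim7 and Zyx at -0.21 and 0.09.

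Of the transcription factors, myocardin (Myocd) was barely detected, with 24, 35 and 4 fragments in wild-type and 5, 12 and 9 fragments in knockout libraries, or at most 0.819 CPM. Its log2 fold change was -0.70 (standard error 0.81), and the groups overlapped. Srf stood at 101, 124 and 76.1 CPM against 80.8, 94.9 and 77.2 CPM, Mkl1 at 78.6, 100.2 and 90.6 CPM against 97.9, 84.3 and 84.3 CPM, and Mkl2 at 85.8, 55.8 and 75.7 CPM against 81.3, 80.2 and 79.2 CPM. Their log2 fold changes were -0.25, -0.02 and 0.15, and the groups overlapped for all 3. Srf and Mkl1 were among the 29 of the 35 genes that peaked in wild-type replicate 2, and Mkl2 was lowest there. For Mkl1 the peak was slight, at 100.2 CPM against 97.9 CPM in knockout replicate 1. The authors' status marked the Srf locus FAIL in 3 libraries.

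**Figure D4:**
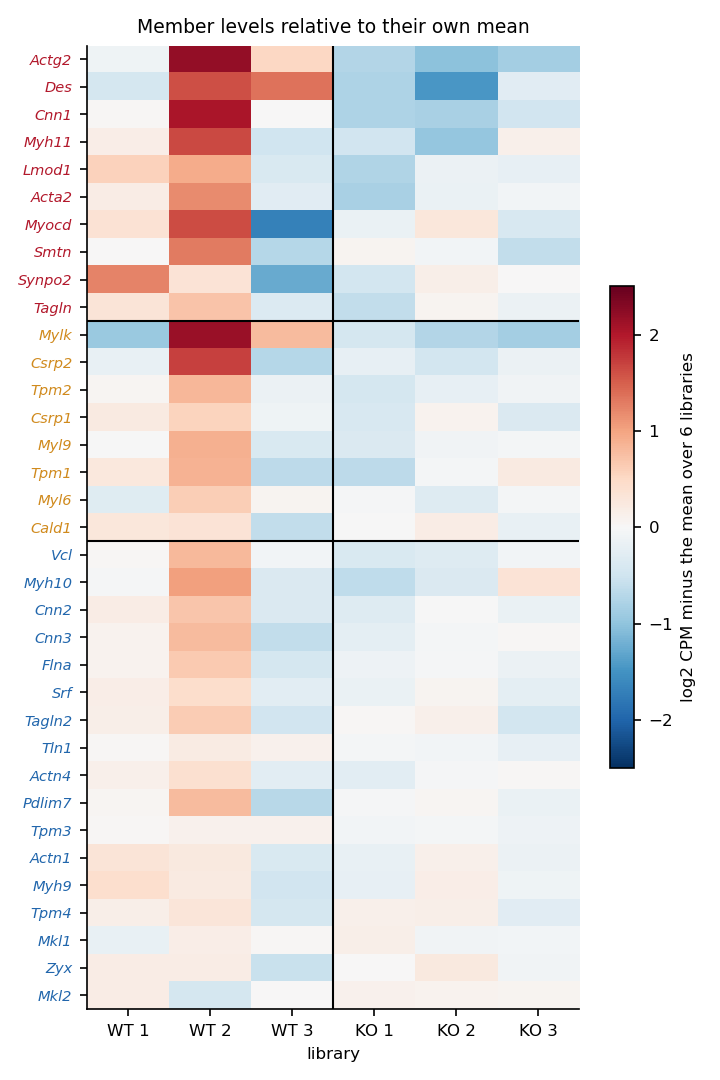
Log2 CPM of each of the 35 genes in each library, minus the gene's own mean over the 6 libraries, with gene names coloured by class (red restricted, orange enriched or mixed, blue widely expressed). Wild-type replicate 2 is the highest library for 29 genes, and wild-type replicate 3 the lowest for 16.

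The wild-type libraries differed among themselves more than the knockout libraries did. The ratio of the highest to the lowest wild-type CPM had a median of 4.13 over the restricted genes, 2.20 over the enriched or mixed genes and 1.68 over the widely expressed genes, and over the knockout libraries it was 1.61, 1.29 and 1.23. Over all loci the medians were 1.78 and 1.29. The SD of log2 CPM was larger in wild-type than in knockout libraries for 35 of 35 genes, as it was for 81.2% of all loci. After centring each gene on its mean, the median of the restricted genes was 0.17, 1.46 and -0.36 (log2) in wild-type replicates 1 to 3 and -0.67, -0.16 and -0.25 in the knockout libraries. By this median wild-type replicate 3 lay among the knockout libraries, and wild-type replicate 2 apart from all others. Single genes differed: wild-type replicate 3 lay above all knockout libraries for Actg2, Cnn1 and Des. It lay below all of them for Synpo2, Smtn and Myocd. The part of fibroblast, proliferation and macrophage RNA in these levels was not tested. Without the 3 libraries richest in macrophage markers, an alternative chosen after seeing the data, 31 of 35 genes were below 0 and the medians were -0.44, -0.14 and -0.16 for the 3 classes. That alternative leaves 1 wild-type against 2 knockout libraries, so its values, those of Mylk and Des above included, rest on a single wild-type library.

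Other genes of the same pathways were read from 4 lists, in which edgeR and DESeq2 called 0 genes. At an unadjusted edgeR p under 0.05 there were 2, Aoc3 and Tns1, both lower in knockout libraries, beside 2.27% of all loci lower at this p. Of 19 further smooth muscle genes tested, 13 had a log2 fold change below 0, with a median of -0.53 and of -0.24 without wild-type replicate 2. Among them Aoc3, an amine oxidase of vascular smooth muscle, stood at 0.708, 14.3 and 6.51 CPM in wild-type and 0.845, 0.617 and 0.554 CPM in knockout libraries. Wild-type replicate 1 lay with the knockout libraries, and the log2 fold change was -3.42 (standard error 1.04). Of 27 other targets or partners of SRF or of the mechanosensitive coactivators, 17 were below 0 (median -0.13). Among these the partner Elk1 was read from a locus shared with Cfp and Uxt. Of 16 other focal adhesion genes 10 were below 0 (median -0.12), and of 11 TGF-beta pathway genes 9 (median -0.21). Over all loci 55.6% were below 0. Leaving out wild-type replicate 2 gave these 3 lists medians of 0.01, 0.01 and -0.13.

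Of the 35 genes, 17 were matched by name in the authors' deposited table, where all 17 have a lower mean FPKM in knockout. Those means come from the same 6 libraries, wild-type replicate 2 included, and are not separate evidence. The share of all genes there with a lower knockout mean was not counted. In the deposited table Myocd is marked as not tested, and each of the others of the 17 has a q of 1. Cnn1 and Mylk alone of these have a p under 0.05 in the authors' deposited table, Mylk with a p of 0.0208 and means of 15.2 and 3.74 FPKM. Among all genes tested in the authors' deposited table, 1.47% are lower at this p, and at a q under 0.05 the shares are 0.136% lower and 0.0568% higher. Opposite-strand loci carrying a member's name were present for Myl9, Mylk, Lmod1 and Csrp1. That of Myl9 held 5.15% to 5.78% of the fragments of the Myl9 locus in every library. For Csrp1 the share was uneven, from 0% to 5.66%, highest in wild-type replicate 2. For Mylk it ran from 0.321% to 4.67%, and for Lmod1 it was at most 0.181%. The values above are those of the gene's own strand.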

How the data were processed

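Polyadenylated RNA from mouse embryonic fibroblasts was sequenced as 3 libraries of wild-type and 3 of Stc1 knockout cells. Per the submitters' processing notes, Cuffdiff 2.0.1, TopHat2 2.0.6 and CASAVA 1.8.2 were used, in no stated order, on the mm10 build. Per the file headers, the library files give the authors' expected count of fragments, the FPKM (fragments scaled by length and library size) and a status for each locus. The authors' deposited comparison table lists per gene the mean FPKM, log2 fold change, p-value and q-value.

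Expected counts were rounded before testing, since 24.2% of values above 0 were not whole. Of 39495 loci, 2667 without a gene name (0.507% to 0.555% of fragments) and 16 marked HIDATA were left out of library sizes and tests. Loci marked FAIL were kept. Among the 35 genes the mark occurred for Srf in 3 libraries, Cald1 and Flna in 2 each, and Tagln and Actn4 in 1 each. The quasi-likelihood test of edgeR 4.0.16 (R 4.3.3) was run after filterByExpr and TMM scaling with the robust form of glmQLFit, and p-values were adjusted by Benjamini-Hochberg over 15673 loci and a threshold of 0.05. The biological coefficient of variation common to all loci was 0.467. CPM use TMM effective library sizes. Also tried were DESeq2 1.42.0, limma 3.58.1 with voom or on log2(FPKM + 1) and log2(FPKM + 0.1), other scalings and filters, and leaving out each library. Isoform ratios used FPKM and an exact permutation test (SciPy 1.17.1). Promoters and their starts are RefSeq's on GRCm38.p6, and coding identity was computed with Biopython 1.88 from GENCODE M21 transcripts. The coding sequence of a gene was taken as the longest ATG-to-stop reading frame over its protein-coding transcripts, not from annotated coding regions. The fit was tested on simulated data.

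The genes, their classes and the other lists were chosen with earlier results of these data known. Values per library were given for the restricted genes, their widely expressed relatives and the further genes with the smallest p, as the rule for named genes sets; those of Tpm3 and of the factors Srf, Mkl1 and Mkl2 were added after their values were seen. Several of the lists' genes share loci and cannot be told apart there. The result of 1 further gene list is not reported here.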

Additional observations from a re-analysis of the deposited data

How the results depend on the processing

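Of 554 log2 fold changes of single genes under 16 alternatives, 521 kept their sign and threshold side and 33 changed sign, 13 of these without wild-type replicate 2. For 16 of 35 genes the sign was the same in every alternative. Calls over all loci, 0 in edgeR, were 29 higher and 32 lower in DESeq2 and 1 higher in limma on log2(FPKM + 0.1). With each library left out in turn, the number of genes below 0 ranged from 20 to 34 for all 35, from 4 to 8 for the enriched or mixed and from 8 to 16 for the widely expressed genes, the lowest being without wild-type replicate 2. The median over all 35 genes ranged from -0.62 to -0.06, over the restricted genes from -1.14 to -0.38 and over the enriched or mixed genes from -0.69 to 0.00. Single genes whose sign changed on leaving out a library had these ranges: Cald1 -0.32 to 0.11, Cnn3 -0.57 to 0.16, Csrp2 -1.32 to 0.17, Flna -0.50 to 0.06, Mkl1 -0.10 to 0.08, Myh10 -0.83 to 0.04, Myh9 -0.37 to 0.04, Myl9 -0.67 to 0.04, Myocd -1.18 to 0.23, Pdlim7 -0.51 to 0.24, Smtn -0.97 to 0.15, Synpo2 -0.94 to 0.16, Tagln2 -0.50 to 0.06, Tpm1 -0.72 to 0.01, Tpm4 -0.22 to 0.14 and Zyx -0.12 to 0.21. The Tpm1 to Tpm3 ratio ranged from -0.57 to 0.17. Without the 3 libraries richest in macrophage markers, which leaves 1 wild-type library, Myh10 was 0.05, Mylk 0.13, Myl6 0.11, Mkl1 0.10, Mkl2 -0.11 and Zyx -0.10. Tpm4 was 0.02 in limma on either FPKM scale and 0.00 with voom, and Mkl1 0.01 with upper quartile scaling. The CArG count was 8 with 1 departure allowed. The cause of these differences was not tested. No paired analysis was possible because the labels give no replicate numbers that pair the libraries. The replicate numbers used here follow the order of the deposited samples within each genotype. Myocd rests on 4 to 35 fragments per library.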
